A study of Homo sapiens with 17 samples.

Results

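NUDC and ARHGDIA are 2 genes selected on the Cas9 against dCas9 contrast at 72 h, because their mRNA was among the strongest falls there while few footprints changed. They are 2 of the 10896 genes tested at 72 h and of the 9016 tested at 36 h, and both passed the minimum count at both times. NUDC encodes a chaperone that works with HSP90 and helps dynein, the minus-end-directed microtubule motor, during mitosis and neuronal migration. ARHGDIA encodes RhoGDI alpha, which binds the lipid-modified tail of small GTPases that steer the actin cytoskeleton and holds them inactive in the cytosol. Ribosome profiling counts the mRNA fragments that ribosomes shield from nuclease (footprints), and RNA-seq counts the mRNA itself. According to the paper, lysates were divided between both methods. The quotient of both, the translational efficiency, is the footprint level per unit of mRNA.

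All cells were HEK293, an established human embryonic kidney line, electroporated with a Cas9 or a dCas9 ribonucleoprotein that carried the sgIntron guide to an intron of JAK2. Cas9 cuts this site, whereas the catalytically inactive dCas9 does not, so the dCas9 cells also received the protein and the guide. Of the 17 libraries, 9 came from 36 h and 8 from 72 h after electroporation. At 36 h there were 3 Cas9 mRNA libraries (replicates a, b and c), 2 dCas9 mRNA libraries (d and e), 2 Cas9 footprint libraries (a and c) and 2 dCas9 footprint libraries (d and e). The 72 h set held, for either nuclease, mRNA replicates a and b and footprint replicates e and f. The guides were synthetic at 36 h and transcribed in vitro at 72 h, and each time point was aligned with its own program and annotation. The time after electroporation, the guide, the aligner and the annotation therefore cannot be told apart between 36 and 72 h. Each replicate was a plate that pooled several electroporations of the same line.

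The libraries held between 25095505 and 33350952 counts for mRNA at 36 h and between 33040296 and 42825667 at 72 h. Footprint libraries were shallower, with 689636 (dCas9 e) to 4868580 counts at 36 h and 3183555 to 8864461 at 72 h. In the mRNA libraries, each of the 4 HEK293 markers VIM, KRT8, KRT18 and NEFM was above 2.60 CPM (counts scaled to a common library total), and each of 6 markers of blood, endothelial and liver cells was below 0.80 CPM. At a false discovery rate of 0.1 in edgeR's quasi-likelihood test, 0% of the 9016 genes passed in mRNA, in footprints or in translational efficiency at 36 h, with 26, 862 and 568 genes at an unadjusted p under 0.05. DESeq2 called 0, 46 and 1 of them. These fits share the estimate of spread between footprint and mRNA libraries. With each library type fitted alone in edgeR at 36 h, 422 genes in mRNA and 188 in footprints had an unadjusted p under 0.05. At 72 h, 5.63% of the 10896 genes passed in mRNA, of which 0.422% of all tested genes were higher and 5.2% lower with Cas9. Footprints at 72 h gave 0%, with 396 genes at an unadjusted p under 0.05 and 0 calls in DESeq2. For translational efficiency at 72 h 0.716% passed, 0.698% higher and 0.0184% lower.

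NUDC lies on the plus strand of chromosome 1 (hg38, 26900238 to 26946871), and the files list 1 of its 4 annotated transcripts, NUDC-201, whose 9 exons all hold coding sequence. Its coding sequence of 993 bases has a GC content of 55.6%. ARHGDIA lies on the minus strand of chromosome 17 (81867721 to 81871378), and the kept transcript, ARHGDIA-201, has 6 exons, 5 of them coding. Its coding sequence has 612 bases and a GC content of 60.5%. Counts were taken over 312 codons of NUDC and 185 codons of ARHGDIA at 72 h, and over 311 and 184 at 36 h.

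Reads of NUDC can also match 2 intronless copies on chromosome 2, annotated as the processed pseudogenes NUDCP1 and NUDCP2. The copies align with 91.6% identity over 993 bases and with 95.5% over 711 bases. Of the 944 windows of 50 bases in the NUDC coding sequence, the read length of these libraries, 113 (12.0%) occur unchanged in a copy, and of the 964 windows of 30 bases, about a footprint's length, 337 (35.0%) do. For ARHGDIA, 0 of 563 windows of 50 bases and 0 of 583 windows of 30 bases did, and its best match elsewhere was 76.9% identical over 195 bases on chromosome 16, within its relative ARHGDIG. How the authors' counting placed reads that match several loci was not examined, so the NUDC counts carry this uncertainty. The stretch below is the first part of the NUDC coding sequence that aligns without a gap to both copies, and is shown because it is read across an exon junction in NUDC and without one in the copies. It covers coding bases 332 to 391, in exon 3 (chr1:26941629-26941660) and exon 4 (chr1:26941753-26941780), and a capital marks a base that differs from NUDC.
NUDC, coding bases 332 to 391: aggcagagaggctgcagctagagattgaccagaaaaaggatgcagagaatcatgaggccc
NUDCP1, chr2:152389980-152390039, plus strand: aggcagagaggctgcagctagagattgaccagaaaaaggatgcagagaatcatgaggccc
NUDCP2, chr2:178454762-178454821, plus strand: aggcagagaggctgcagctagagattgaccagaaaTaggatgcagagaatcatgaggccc
NUDCP1 is identical to NUDC over these 60 bases, and NUDCP2 differs by A36T, counted from the first base shown. Rows for the transcripts of both copies at 72 h had no counted codons and a count of 0. The same held for all 43611 listed transcripts without a coding part at 72 h. The 0 therefore does not show whether reads fell on the copies.

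The promoters are shown because the mRNA of both genes was lower with Cas9 at 72 h, and each is given as the 250 bases before the transcription start in RefSeq (GRCh38.p14), 5′ to 3′ on the gene's strand. Capitals mark matches on either strand to 6 short motifs. These were TATAAA for the core promoter element of that name, CCAAT for the site of NF-Y, GGGCGG for the site of Sp1, CCGGAAGT for the site of ETS factors, CGCATGCG for part of the site of NRF1, and CACGTG for the E-box.
NUDC, chr1:26921493-26921742, plus strand: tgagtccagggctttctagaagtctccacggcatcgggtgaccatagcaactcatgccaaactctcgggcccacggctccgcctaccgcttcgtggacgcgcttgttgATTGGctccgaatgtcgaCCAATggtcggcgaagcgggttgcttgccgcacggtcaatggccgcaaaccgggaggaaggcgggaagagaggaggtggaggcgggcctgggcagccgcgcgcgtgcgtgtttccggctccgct
ARHGDIA, chr17:81871338-81871587, minus strand: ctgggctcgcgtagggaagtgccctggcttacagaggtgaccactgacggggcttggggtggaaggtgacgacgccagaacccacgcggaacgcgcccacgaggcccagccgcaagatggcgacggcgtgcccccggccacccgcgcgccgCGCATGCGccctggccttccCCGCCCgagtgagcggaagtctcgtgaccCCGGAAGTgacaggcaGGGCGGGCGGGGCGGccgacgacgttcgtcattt
The NUDC stretch holds CCAAT at 2 places, from 142 and from 124 bases before the start, a motif found in 32.0% of 35116 promoters of this length. The stretch of ARHGDIA holds 4 matches to GGGCGG, of which 3 overlap in 1 run that begins 34 bases before the start. It also holds CCGGAAGT from 50 bases and CGCATGCG from 99 bases before the start, and these motifs occur in 42.6%, 3.42% and 1.73% of the promoters. The 2 stretches share none of the motifs searched, and neither holds TATAAA (10.7% of promoters) or CACGTG (6.34%). GC content was 64.4% for NUDC and 71.6% for ARHGDIA, against a median of 58% over all promoters. RefSeq lists a second ARHGDIA start (chr17:81870998-81871247), whose upstream stretch has a GC content of 86%, with 8 matches to GGGCGG and 1 to CACGTG.

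At 36 h, NUDC mRNA did not differ between Cas9 and dCas9 cells beyond the spread between libraries. In mRNA, NUDC was at 290, 263 and 297 CPM in Cas9 replicates a, b and c, and at 294 and 315 CPM in dCas9 replicates d and e. The ranges overlap, since the lower dCas9 library lies below the highest Cas9 library. The log2 fold change, Cas9 minus dCas9, was -0.10 (SE 0.11, 95% interval -0.33 to 0.13), with an adjusted p of 1.00 in edgeR's quasi-likelihood test. It was below 0 in 5 of the 6 library pairs that can be formed across the nucleases.

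NUDC footprints at 36 h were at 485 and 430 CPM in Cas9 replicates a and c, and at 385 and 433 CPM in dCas9 replicates d and e. The groups overlap by the narrow margin between 430 and 433 CPM. The log2 fold change of footprints was 0.17 (SE 0.13, 95% interval -0.11 to 0.44, edgeR adjusted p = 0.709), above 0 in 3 of 4 pairs. For translational efficiency it was 0.27 (SE 0.17, 95% interval -0.09 to 0.63, edgeR adjusted p = 0.837).

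ARHGDIA mRNA at 36 h was at 271, 244 and 249 CPM in Cas9 replicates a, b and c, and at 270 and 258 CPM in dCas9 replicates d and e. Both dCas9 values lie inside the Cas9 range. The log2 fold change of mRNA was -0.05 (SE 0.12, 95% interval -0.32 to 0.21, edgeR adjusted p = 1.00).

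Footprints of ARHGDIA at 36 h were at 386 and 450 CPM in Cas9 replicates a and c, and at 457 and 610 CPM in dCas9 replicates d and e. Here the groups do not overlap, by the narrow margin between 450 and 457 CPM. The share of all tested genes that separate in this way was not counted. The log2 fold change of footprints was -0.32 (SE 0.15, 95% interval -0.63 to -0.01), below 0 in 4 of 4 pairs, with an edgeR adjusted p of 0.512 that misses the threshold. With footprints fitted alone, the log2 fold change was -0.34 (edgeR unadjusted p = 0.0782, adjusted p = 0.999). The value depended on each footprint library. Without dCas9 replicate d it was -0.55, and without dCas9 replicate e, the library with 689636 counts, it was -0.12. Without Cas9 replicate a it was -0.21 and without Cas9 replicate c -0.44. Each of these fits left a single footprint library for that nuclease, so only the effect sizes are given. Translational efficiency of ARHGDIA had a log2 fold change of -0.27 (SE 0.19, 95% interval -0.68 to 0.14, edgeR adjusted p = 0.868).

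**Figure D1:**
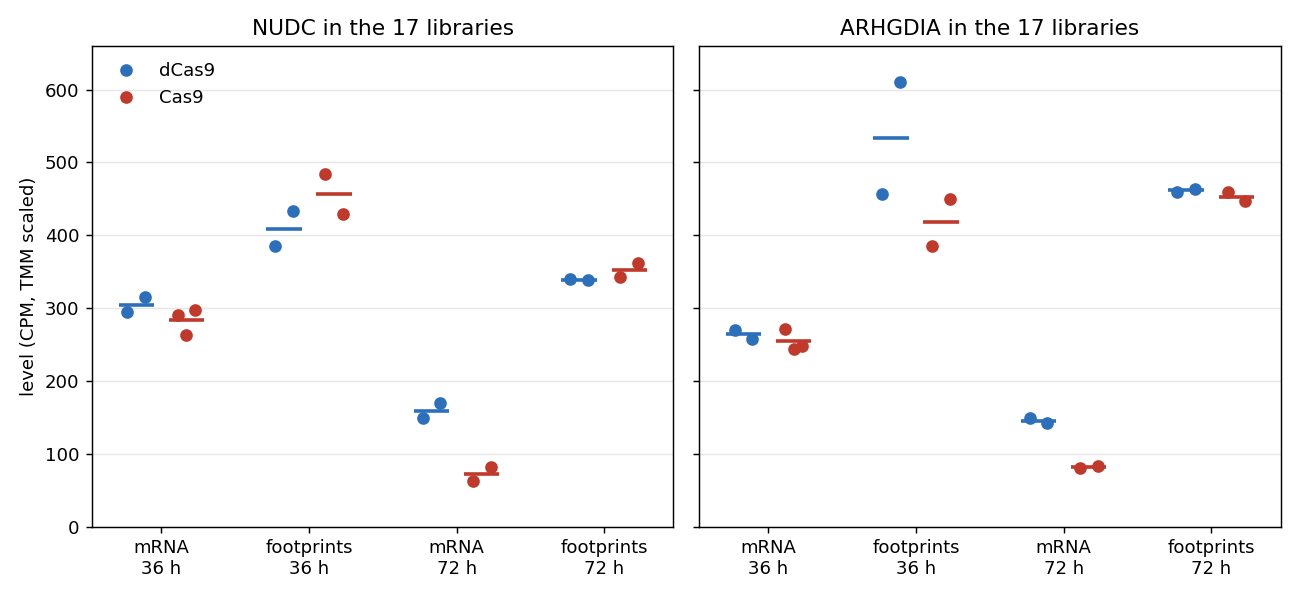
NUDC (left) and ARHGDIA (right) in each of the 17 libraries, in CPM with TMM scaling; points are libraries, short lines are group means, blue is dCas9 and red is Cas9. At 72 h the Cas9 mRNA libraries lie at 62.0 to 83.3 CPM and the dCas9 mRNA libraries at 142 to 169 CPM, while footprints lie at 339 to 362 CPM for NUDC and at 448 to 464 CPM for ARHGDIA.

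At 72 h the mRNA of both genes was lower in Cas9 cells, which is how they were chosen, so these values are a description with no test. NUDC mRNA was at 62.0 and 81.9 CPM in Cas9 replicates a and b, and at 149 and 169 CPM in dCas9 replicates a and b. Each Cas9 library lies far below each dCas9 library, and in bulk libraries fewer cells that express a transcript and less of it per cell cannot be told apart. The NUDC log2 fold change was -1.14 (SE 0.12), or 45.2% of the dCas9 level, and single pairs ranged from -1.45 to -0.86. In the order of mRNA log2 fold changes, NUDC was the 14th lowest of 10896 genes, between LDOC1 at -1.16 and SEPHS2, a selenophosphate synthetase, at -1.14.

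ARHGDIA mRNA was at 80.2 and 83.3 CPM in the Cas9 libraries at 72 h, and at 149 and 142 CPM in the dCas9 libraries. The replicates lie closer together than those of NUDC, and the groups are again apart. Its log2 fold change was -0.83 (SE 0.09), or 56.1% of the dCas9 level, with pairs from -0.89 to -0.77. It was the 82nd lowest, between SRM, the spermidine synthase, and CNOT3, a subunit of the CCR4-NOT deadenylase, both at -0.83.

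The footprints of both genes at 72 h were close in all 4 libraries. NUDC footprints were at 343 and 362 CPM in Cas9 replicates e and f, and at 339 and 339 CPM in dCas9 replicates e and f. The Cas9 values are both higher, by a log2 fold change of 0.06 (SE 0.12), and the share of all tested genes that separate so was not counted. ARHGDIA footprints were at 459 and 448 CPM with Cas9 and at 460 and 464 CPM with dCas9, a log2 fold change of -0.03 (SE 0.09). Translational efficiency had a log2 fold change of 1.20 (SE 0.17) for NUDC and of 0.81 (SE 0.13) for ARHGDIA, which is the mRNA difference with its sign turned, plus the small footprint difference.

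**Figure D2:**
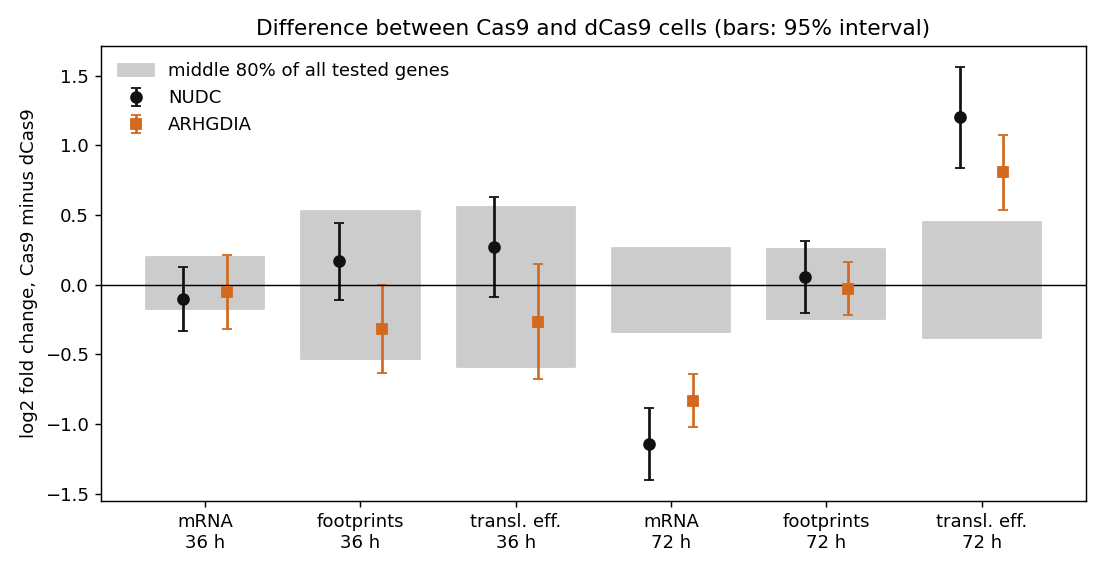
Log2 fold change, Cas9 minus dCas9, of NUDC (circles) and ARHGDIA (squares) in each comparison, with 95% intervals from the edgeR fit; grey boxes span the middle 80% of all tested genes. Both genes lie outside the grey box in mRNA and translational efficiency at 72 h (the contrast they were chosen on) and inside it in the other 4 comparisons. The intervals at 72 h belong to values used in the choice, so they are a description and not a test.

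The footprint-to-mRNA ratio divides footprint CPM by mRNA CPM, and each is relative to its own library. At 36 h the ratio was taken between libraries that share a letter, although their deviations from the group means correlated at only 0.011 to 0.065 over genes. The NUDC ratio was 1.67 and 1.45 in Cas9 replicates a and c, and 1.31 and 1.38 in dCas9 replicates d and e. The Cas9 ratios are both higher, and the difference in translational efficiency did not pass the test given above. The share of all tested genes whose ratios separate in this way was not counted. ARHGDIA had ratios of 1.42 and 1.81 with Cas9 and of 1.69 and 2.37 with dCas9, so its groups overlap. The median over all tested genes was 0.97 to 0.98 at 36 h for group means.

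At 72 h the letters do not link footprint and mRNA libraries, and the ratio was taken for all combinations within a nuclease. NUDC ratios ranged from 2.00 to 2.28 with dCas9 and from 4.18 to 5.84 with Cas9. For ARHGDIA they ranged from 3.09 to 3.26 and from 5.37 to 5.72. With dCas9 the group-mean ratio was higher than that of 90.2% of genes for NUDC and 96.1% for ARHGDIA at 72 h, and than that of 69.6% and 87.5% at 36 h. With Cas9 these shares were 97.5% and 98.0% at 72 h, and 78.3% and 79.1% at 36 h.

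**Figure D3:**
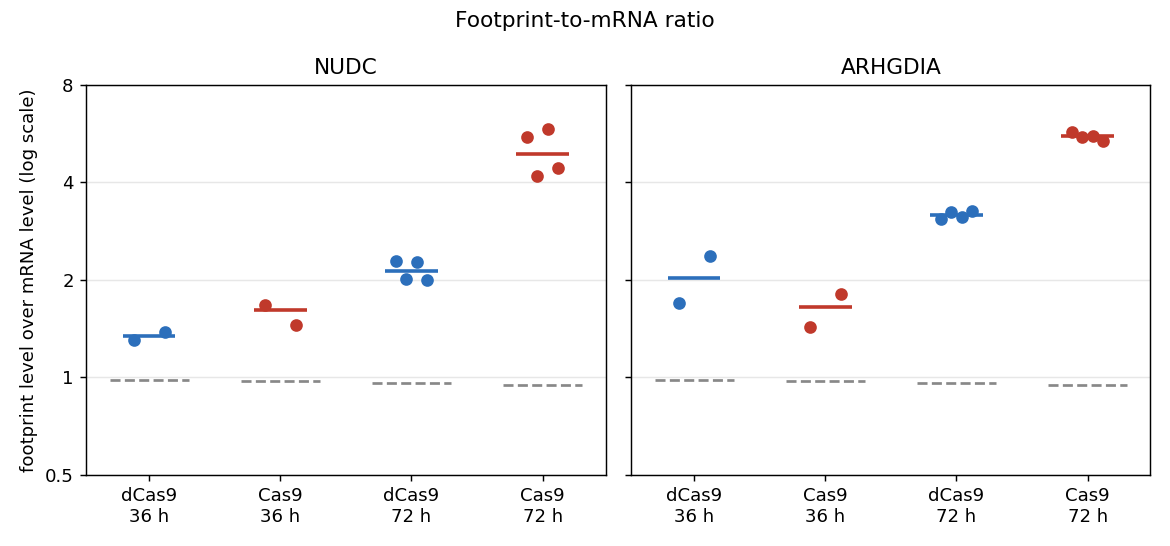
Footprint level divided by mRNA level (log scale) for NUDC and ARHGDIA; points are libraries of the same letter at 36 h and all combinations of a footprint and an mRNA library at 72 h, solid lines are ratios of group means and dashed lines the median gene. The ratio of both genes is between 1.31 and 2.37 at 36 h, and at 72 h it is 4.18 or more in each Cas9 combination and 3.26 or less in each dCas9 combination.

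Per length of counted sequence, both genes are abundant. NUDC mRNA per kilobase was higher than that of 94.1% to 94.9% of tested genes in the 5 mRNA libraries of 36 h and of 92.1% and 93.1% in the dCas9 libraries of 72 h. In the Cas9 libraries of 72 h this share was 78.9% and 84.3%. The footprints of NUDC per kilobase stayed above those of 95.2% to 95.4% of genes in the 4 footprint libraries of 72 h. ARHGDIA mRNA per kilobase was above 95.2% and 95.3% of genes in dCas9 cells and above 90.9% and 91.3% in Cas9 cells at 72 h, and its footprints were above 97.8% in each library. In dCas9 cells at 72 h, ARHGDIA had 263 CPM of mRNA per kilobase and NUDC 170 CPM, and the footprint levels per kilobase were 833 and 362 CPM.

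The dCas9 libraries alone also differed between the time points. NUDC mRNA in dCas9 cells was 305 ± 14.4 CPM (SD, n = 2) at 36 h and 159 ± 14.5 CPM (SD, n = 2) at 72 h. The log2 difference, 72 h minus 36 h, was -0.94, lower than in all but 1.06% of the 8970 genes tested at both times, whose median was -0.07. ARHGDIA mRNA in dCas9 cells was 264 ± 8.53 CPM (SD, n = 2) at 36 h and 146 ± 4.67 CPM (SD, n = 2) at 72 h, a log2 difference of -0.86 (1.56% of genes were lower). Footprints in dCas9 cells moved less, by -0.27 for NUDC and -0.19 for ARHGDIA. With Cas9 the log2 differences in mRNA between the times were -1.99 for NUDC and -1.64 for ARHGDIA. The same dCas9 libraries of 72 h enter the Cas9 comparison, and no test was made, because the time, the guide, the aligner and the annotation cannot be told apart. The order of mRNA levels was the same for both genes, highest at 36 h, where the nucleases overlap, then dCas9 at 72 h, then Cas9 at 72 h.

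The single transcript rows of ARHGDIA had mRNA differences close to that of the kept row. NUDC has 1 row, so no isoform can be compared. ARHGDIA has 3 rows at 36 h (ARHGDIA-201, ARHGDIA-203 and ARHGDIA-207) with equal counts in every library, since they share the coding sequence, and 3 more at 72 h, with 141, 216 and 110 counted codons. A read is counted on each row that it fits, so rows overlap and are not independent. At 72 h the rows ARHGDIA-202, ARHGDIA-217 and ARHGDIA-208 held 61.8% to 62.9%, 86.5% to 87.9% and 56.9% to 58.6% of the count of the kept row over the 4 mRNA libraries. The ranges cover the Cas9 and the dCas9 libraries. When each transcript was tested on its own, the mRNA log2 fold changes of the 6 rows at 72 h ranged from -0.84 to -0.81, and those of footprints from -0.03 to 0.02.

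Of the 13 regulators of dynein and members of the NudC family, not counting NUDC, all were tested in mRNA at 72 h, and 1 passed as lower and 0 as higher, against 5.2% lower over all tested genes. The median log2 fold change was -0.02, against 0.02 over all genes. PLK1, the mitotic kinase that phosphorylates NUDC, was the lower one, at 124 CPM with Cas9 and 179 CPM with dCas9 (log2 fold change -0.52, SE 0.09, edgeR adjusted p = 0.00543). The relatives NUDCD1, NUDCD2 and NUDCD3 had mRNA log2 fold changes of 0.26, 0.27 and 0.04 at 72 h (edgeR adjusted p = 0.423, 0.277 and 0.889). PAFAH1B1, which encodes the dynein regulator LIS1, had -0.02 (edgeR adjusted p = 0.948).

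Of the 9 dynein subunits tested, 1 was lower in mRNA at 72 h, against 5.2% of all tested genes. This was DYNC1H1, the motor heavy chain, at -0.39 (SE 0.11, edgeR adjusted p = 0.0627). Of the 12 dynactin subunits, the adaptor complex of dynein, 1 was lower against the same 5.2%, CAPZB, a capping protein, at -0.63 (SE 0.14, edgeR adjusted p = 0.0213). Neither call held with mRNA fitted alone or without Cas9 mRNA replicate a, and that of DYNC1H1 also failed without dCas9 footprint replicate e or f.

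HSP90 and its co-chaperones had 3 of 10 genes lower and 0 higher in mRNA at 72 h, against 5.2% lower and 0.422% higher over all tested genes. The median log2 fold change was -0.18, against 0.02 over all. FKBP5, a steroid receptor co-chaperone, was at -0.86 (SE 0.15, edgeR adjusted p = 0.00543). HSP90AA1, the inducible HSP90, was at 1104 CPM with Cas9 and 1670 CPM with dCas9 (log2 fold change -0.60, SE 0.12, edgeR adjusted p = 0.00887). HSP90AB1, the constitutive form, was at -0.35 (SE 0.09, edgeR adjusted p = 0.0332), and passed neither with mRNA fitted alone nor without Cas9 mRNA replicate a. Footprints of FKBP5 and HSP90AA1 at 72 h had log2 fold changes of -0.06 and -0.02.

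Of the RhoGDI relatives of ARHGDIA, ARHGDIB, known from blood cells, had at most 8 counts in any library and was not tested. ARHGDIG, named here after its values were seen, was at 25.3 CPM with Cas9 and 19.7 CPM with dCas9 in mRNA at 72 h. Its log2 fold change was 0.36 (SE 0.17, edgeR adjusted p = 0.304), which did not pass, but it passed as higher with GC correction (0.42, edgeR adjusted p = 0.0417), also beside the replicate block (0.41, edgeR adjusted p = 0.0291). Without Cas9 mRNA replicate a the value was 0.18 and without dCas9 mRNA replicate b 0.24 (edgeR adjusted p = 0.999 and 0.419).

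In footprints at 72 h and in each comparison at 36 h, 0 genes of these lists passed, against 0% of all tested genes. In translational efficiency at 72 h 0 of them passed as well, against 0.716% of all tested genes. Under alternatives that kept all libraries, up to 4 genes of HSP90 and its co-chaperones passed there as higher. Up to 2 did so in each of the lists of dynein subunits, dynactin subunits and dynein regulators with the NudC family, and 0 of the RhoGDI family.

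**Figure D4:**
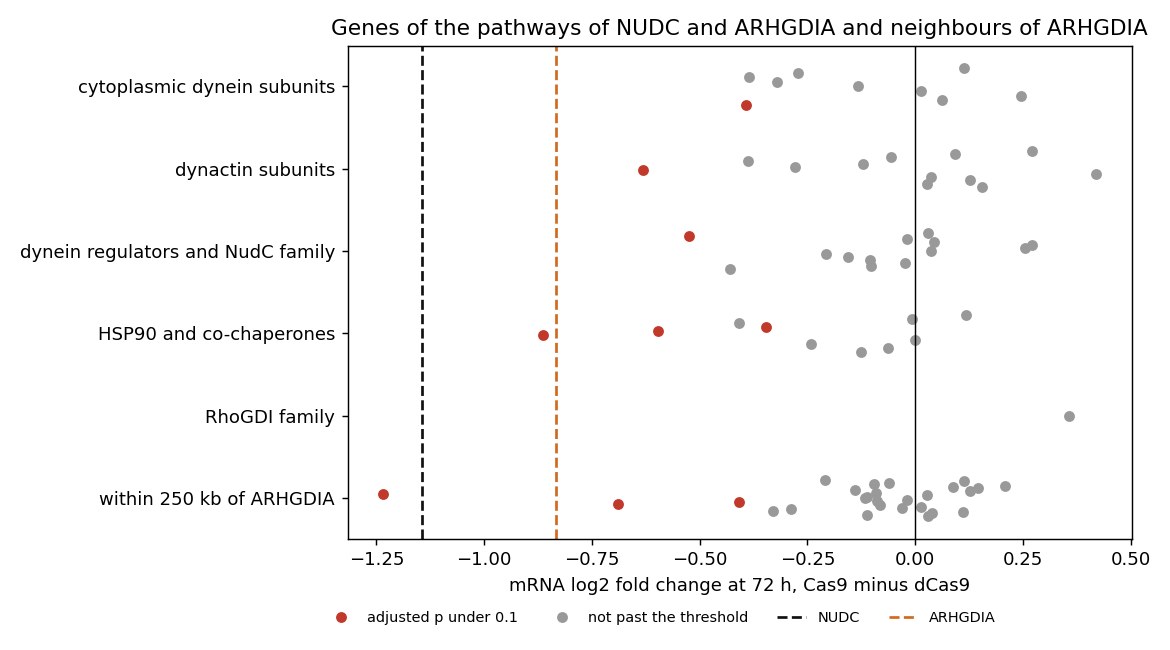
mRNA log2 fold change at 72 h, Cas9 minus dCas9, of each tested gene in the pathway lists and within 250 kb of ARHGDIA; red points passed an adjusted p of 0.1 in edgeR, and dashed lines mark NUDC and ARHGDIA. MRPL12, within 250 kb of ARHGDIA, is the only gene shown that lies to the left of NUDC (at -1.23), and FKBP5 also lies to the left of ARHGDIA (at -0.86).

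ARID1A, a subunit of the SWI/SNF chromatin remodeller that lies within 250 kb of NUDC, had an mRNA log2 fold change at 72 h of -0.67 (SE 0.11, edgeR adjusted p = 0.00255), and its translational efficiency was higher, at 0.78 (SE 0.16, edgeR adjusted p = 0.0410). The other neighbours of NUDC are not reported here, so ARID1A does not describe that neighbourhood.

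Within 250 kb of ARHGDIA, 27 of 33 genes were tested, and 3 were lower in mRNA at 72 h, against 5.2% of all tested genes. The median was -0.08, against 0.02 over all, and 2 of the 3 overlap each other. MRPL12, a protein of the mitochondrial ribosome, was at 49.4 CPM with Cas9 and 116 CPM with dCas9 (log2 fold change -1.23, SE 0.15, edgeR adjusted p = 0.000722). Its translational efficiency was higher, at 1.18 (SE 0.22, edgeR adjusted p = 0.0396). ENSG00000262660, at -0.69 (edgeR adjusted p = 0.00234), is a readthrough gene that overlaps MRPL12, so reads from the shared part cannot be assigned to either gene and the calls are not separate. FASN, the fatty acid synthase, was at -0.41 (SE 0.09, edgeR adjusted p = 0.0153), and passed in each alternative run on genes but that of mRNA alone. The calls in translational efficiency of ARID1A and MRPL12 were each lost when any 1 of the 4 footprint libraries was left out, that of ARID1A also without Cas9 mRNA replicate a.

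The genes whose pattern lay closest to each of the 2 were sought over all 17 libraries, as the root mean square difference of log2 CPM after subtracting the dCas9 mean of the same time and library type. The measure includes the contrast on which the 2 genes were chosen, so the values below are a description. Nearest to NUDC of 8969 genes were U2AF1, a splicing factor, and ENSG00000275895, with equal values of 0.096, and these are near-identical copies whose reads cannot be told apart. MRPL12 (0.096), PSMC5, an ATPase of the proteasome (0.125), and TACC3, a spindle protein (0.127), followed, against a median gene at 0.49. Their mRNA log2 fold changes at 72 h were -1.03 for U2AF1, -1.23 for MRPL12, -0.92 for PSMC5 and -0.83 for TACC3, and those of footprints lay between -0.10 and 0.12.

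Nearest to ARHGDIA were EPHX1, an epoxide hydrolase (0.102), CYB5R3, a cytochrome b5 reductase (0.108), SF3A1, a splicing factor (0.110), CDK11B, a kinase (0.117), and SRM (0.120), against a median gene at 0.41. The mRNA log2 fold changes of these 5 at 72 h ranged from -0.87 to -0.60, and their footprints at 36 h had log2 fold changes from -0.29 to -0.05. ARHGDIA itself ranked 91st in likeness to NUDC and NUDC 381st in likeness to ARHGDIA, at a root mean square difference of 0.24.

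What the 2 genes share beyond the rule was measured against all genes tested at 72 h. Both have an above-median GC content of the coding sequence, higher than that of 62.6% (NUDC) and 79.6% (ARHGDIA) of genes, and mRNA moved with GC content over all genes. When genes were divided into 10 equal bins, in the bin with the lowest GC content, the median mRNA log2 fold change at 72 h was 0.23 and 0.184% of genes passed as lower. In the bin that holds NUDC (54.85% to 57.69% GC) the median was -0.08 and 9.59% passed as lower, and in that of ARHGDIA (57.7% to 60.55% GC) the median was -0.08 and 8.01% passed. In the bin with the highest GC content the median was -0.05 and 6.08% passed as lower. After removal of the trend with GC content in each library, the log2 fold changes were -1.08 for NUDC and -0.75 for ARHGDIA. At 36 h the median of the bin with the lowest GC content was 0.09, and those of the bins of NUDC and ARHGDIA were -0.04 and -0.03. Both genes also lay in the highest of 10 bins of mRNA and of footprint level per length in dCas9 cells at 72 h. In these bins 8.53% and 12.8% of genes passed as lower in mRNA at 72 h, with median log2 fold changes of 0.07 and 0.04. The dCas9 libraries that set these levels also enter the comparison.

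**Figure D5:**
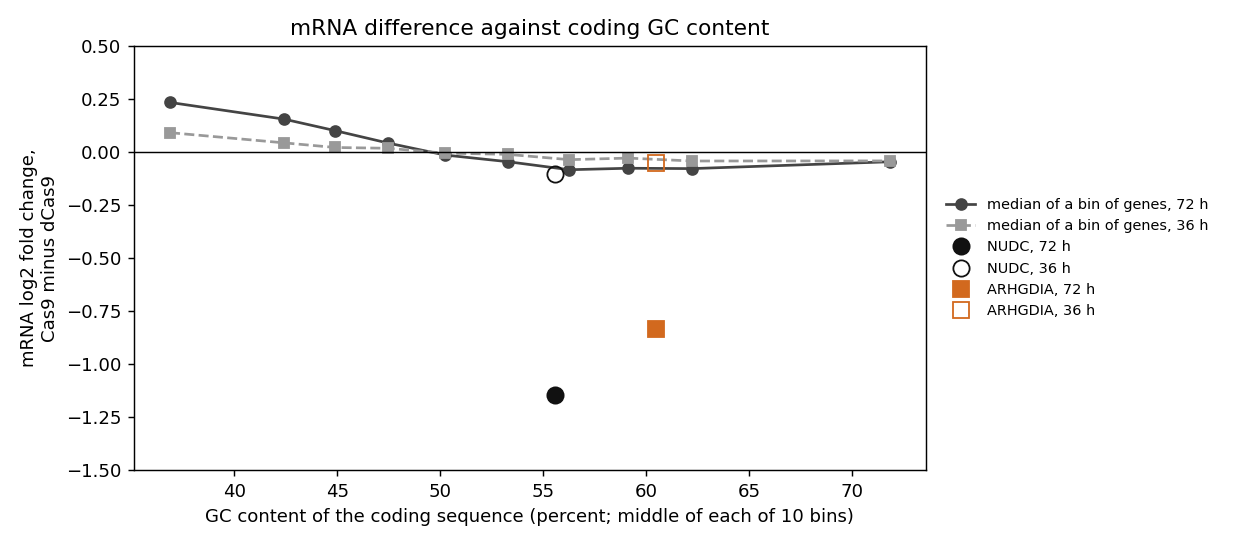
mRNA log2 fold change, Cas9 minus dCas9, against the GC content of the coding sequence; lines join the medians of 10 equal bins of the genes tested at 72 h (solid, 72 h; dashed, 36 h), and large symbols are NUDC (circles) and ARHGDIA (squares), filled at 72 h and open at 36 h. At 72 h NUDC (-1.14) and ARHGDIA (-0.83) lie far below the medians of -0.08 at their GC content, and at 36 h they lie near them.

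The 2 genes differ in length. Over all annotated transcripts, NUDC spans 46634 bases and ARHGDIA 3658 bases, longer than 58.2% and 4.97% of the genes tested at 72 h. NUDC-201, the counted NUDC transcript, covers only part of that span (chr1:26921743-26946871). Both coding sequences are short, and those of 30.2% and 13.7% of genes are shorter. NUDC has 9.06 coding exons per kilobase of coding sequence and ARHGDIA 8.17, both above the median of 6.95. A processed pseudogene named after the gene is annotated for NUDC and not for ARHGDIA, and for 14.8% of all tested genes and 21.3% of the 567 genes lower in mRNA at 72 h.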

How the data were processed

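HEK293 mRNA and ribosome footprints were sequenced in 17 libraries, which were grouped by nuclease, time and library type from their labels. Where the title of a 72 h footprint library reads rcas9, the treatment label (Cas9) decided. No footprint library of Cas9 replicate b was used at 36 h. The authors aligned reads with hisat2 to GENCODE release 22 (36 h) or with tophat to release 25 (72 h), whereas the submitters' processing notes name HISAT2 2.1.0 for all libraries. What the authors deposited are raw fp-count read counts for every transcript. The column of counted codons was used for levels per length.

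Transcripts were matched to GENCODE release 44 (hg38; 95.0% and 94.7% of coding transcripts matched), and 1 transcript per gene and time, that with the largest summed count, was kept. Counts were fitted per time point in edgeR 4.0.16 (R 4.3.3; TMM, a mean per nuclease and library type, quasi-likelihood test, Benjamini-Hochberg adjustment, false discovery rate 0.1), over genes whose counts averaged 20 or more in footprint and also in mRNA libraries. CPM use TMM factors, and pairs of libraries a prior count of 2. A p-value measures the spread between plates of 1 cell line. For each gene this spread was estimated over the footprint and mRNA libraries of a time point together. The main fit treated these libraries as independent, although the paper states that lysates were divided between both library types. Fits were tested on simulated data.

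NUDC and ARHGDIA, the gene lists and the rules for named genes (the 2 genes, close relatives and clients, up to 4 called genes per list with the smallest adjusted p, 5 nearest patterns, neighbours in rank) were chosen with earlier results of these data known. Lists were compared by counts and medians, with no set test, and the results of some lists and neighbours are not reported here. Alternatives were DESeq2 1.42.0, median-ratio size factors, no count minimum, filterByExpr, each library type alone, every listed transcript, transcripts kept at 36 h, GC correction, the matched mRNA libraries, replicate blocks, CPM without TMM factors and each library left out.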

Additional observations from a re-analysis of the deposited data

How the results depend on the processing

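Without 1 library at a time, the log2 fold changes of NUDC ranged from -0.15 to -0.05 (mRNA), 0.06 to 0.26 (footprints) and 0.16 to 0.36 (translational efficiency) at 36 h, and from -1.39 to -0.97, 0.01 to 0.09 and 1.02 to 1.44 at 72 h. Those of ARHGDIA ranged from -0.10 to -0.02, -0.55 to -0.12 and -0.49 to -0.07 at 36 h, and from -0.92 to -0.79, -0.05 to -0.01 and 0.76 to 0.89 at 72 h. Each kept its sign in each fit run. At 72 h the genes were chosen on these same libraries, so the kept signs there are a description and not a test. Under the other alternatives the NUDC values at 72 h ranged from -1.16 to -1.08 (mRNA) and 1.13 to 1.22 (translational efficiency), and of the ARHGDIA values the GC correction moved mRNA to -0.75 and translational efficiency to 0.70, with and without the replicate block.

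Counts of called genes depended more on the setting. At 36 h, 0 genes became 46 footprint calls and 1 translational efficiency call in DESeq2, 2 mRNA and 21 footprint calls with no count minimum, 2 mRNA calls with mRNA alone and 1 footprint call with GC correction. Leaving out 1 library gave 0 to 767 calls in footprints and 0 to 365 in translational efficiency, both highest without dCas9 footprint replicate d. At 72 h the 613 mRNA calls became 293 with mRNA alone, 1763 over every listed transcript, 1960 with GC correction (597 higher, 1363 lower), and 110 to 2472 without 1 library (without Cas9 mRNA a and dCas9 mRNA b). The 78 translational efficiency calls became 221 in DESeq2, 170 with median-ratio size factors, 260 with no count minimum, 148 over every listed transcript, 610 with GC correction and 1 to 1065 without 1 library (lowest without a footprint library, highest without dCas9 mRNA b). Footprint calls, 0 at 72 h, became 1 with median-ratio size factors, 2 with no minimum, 4 with footprints alone, 1 with GC correction and 0 to 1 without 1 library. The cause was not tested.

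Same-letter libraries at 72 h did not deviate together (correlation -0.14 for mRNA and 0.01 for footprints). This cannot decide whether the letters pair them. Each group held only 2 libraries, and same-letter footprint and mRNA libraries at 36 h also correlated at only 0.011 to 0.065. The replicate block gave 535 mRNA, 0 footprint and 88 translational efficiency calls at 72 h, and with GC correction 2121, 4 and 772. Crossed mRNA pairs as the block, an alternative chosen after seeing the data, gave 1133, 1 and 249. At 36 h the block by shared letter left 0 translational efficiency calls. The part of depth in the calls was not tested. At 36 h NUDC had 269 to 1810 and ARHGDIA 335 to 2152 footprint counts in a library.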
